A study of Mus musculus with 6 samples.

Results

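The genes described here encode proteins of the presynaptic terminal, the swelling of the axon from which transmitter is released. The set holds 52 genes of the synaptic vesicle and of its release and recycling, taken from a list of symbols and matched to the Ensembl identifiers of the count tables. All 52 were found among the 54752 genes in the tables, and all 52 passed the filter on low counts that left 18617 genes for testing. By role, 9 are calcium sensors, 13 lie in or on the vesicle membrane, 3 are transporters that load transmitter into vesicles, 9 belong to the SNARE complex and its helpers, 13 to the active zone and 5 to endocytosis.

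The right hippocampus was taken whole 3 weeks after surgery, and its RNA was sequenced from 3 sham and 3 BCAS animals with 1 library per mouse. All were wild-type male C57BL/6 mice (C57BL/6 J in the study's methods), given an age of 14 weeks in the labels. BCAS mice carried a microcoil on each common carotid artery, the narrower coil on the right, which lowers blood flow to both hemispheres. Sham mice underwent the same operation without coils, so surgery and anaesthesia were shared by both groups. The tissue was not sorted, and every cell type of the hippocampus contributed RNA to each library.

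A vesicle is filled with transmitter by a proton-driven transporter, docked at the active zone by a scaffold of large proteins, and primed there for fusion. The vesicle SNARE protein then zips up with SNARE proteins of the plasma membrane, a calcium sensor triggers fusion when calcium enters, and the complex is taken apart by an ATPase. The membrane is afterwards recovered by clathrin adaptors, dynamin and their partners. In the hippocampus these genes are expressed in neurons, though some of them not in neurons alone. Among the neurons, glutamatergic principal cells far outnumber GABAergic interneurons.

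Libraries held 29652456 to 35607098 counts, and no member had fewer than 117 counts in any library. Levels are given as CPM, counts relative to the library total after scaling by the TMM method, and changes as log2 fold changes of BCAS against sham from edgeR's quasi-likelihood test, with standard errors (SE) and adjusted P values over all tested genes. A gene was called at an adjusted P under 0.05. The 52 genes together took 2.19, 2.23 and 2.30% of all counts in sham mice 1 to 3 and 1.69, 1.86 and 1.38% in BCAS mice 1 to 3. The groups did not overlap, and the mean share was 2.24% in sham and 1.65% in BCAS mice, a relative difference of -26.6%. Mitochondrially encoded genes took 6.90, 6.92 and 6.99% of counts in sham mice 1 to 3 and 6.07, 6.56 and 6.02% in BCAS mice 1 to 3, also without overlap, and the part of this share in the presynaptic values was not tested.

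Of the 52 genes, 34 were lower in BCAS mice, which is 65.4%, against 13.2% of all tested genes. None was called higher, against 18.0% of all tested genes, in edgeR as in DESeq2 and limma-voom. At an unadjusted P under 0.05, edgeR gave 38 lower genes and 1 higher gene, Unc13c. The share of all tested genes at that unadjusted threshold was not counted. The median log2 fold change of the set was -0.49, with quartiles of -0.56 and -0.29 and a range of -0.98 to 0.43, against a median of 0.018 over all tested genes. The fitted change was below 0 for 47 genes and above 0 for 5, namely Doc2a, Syn3, Sv2c, Rims3 and Unc13c. None of the 52 was a DEG, which also requires an absolute log2 fold change above 1, by edgeR, DESeq2 or limma-voom with all mice and no block. Doc2b became a DEG with the replicate block and without sham mouse 2, sham mouse 3 or BCAS mouse 1, and Sv2b without BCAS mouse 2. Of all tested genes, 0.999% were lower DEGs and 8.47% higher DEGs. The changes of the called members ran from -19.1% for Napa to -49.3% for Doc2b. The count of called genes depended on the sham mice: it was 16, 20 and 12 when sham mice 1, 2 and 3 were left out in turn, while the median change over the set stayed between -0.50 and -0.45. Over all tested genes the lower count fell as well, from 2463 to 1449, 1412 and 1260. Over the alternatives that kept the 0.05 threshold, leaving aside the scalings on neuronal or presynaptic genes, 12 of the 34 kept the call throughout, namely Doc2b, Rph3a, Synpr, Rab3a, Snap25, Vamp1, Cplx1, Nsf, Unc13a, Ppfia2, Nrxn3 and Amph, and 22 lost it in at least 1, each of them on leaving out at least 1 of the sham mice. At an adjusted P under 0.01 in edgeR 9 members were called, these 12 without Synpr, Snap25 and Cplx1. The number of all tested genes called at 0.01 was not counted. Of the 18 genes not called, 10 were called lower in at least 1 of the same alternatives, namely Syt7, Syt11, Syngr1, Syn2, Rab3b, Slc17a6, Stx1a, Rims1, Bsn and Ppfia3. Unc13c was called higher in at least 1, and the other 7 were called in none.

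In 40 of the 52 genes the CPM of all 3 BCAS mice lay below those of all 3 sham mice, which is 76.9%, against 22.7% of all tested genes. In 1 gene, Unc13c, all BCAS mice lay above all sham mice, a pattern seen in 25.3% of all tested genes. Among the BCAS mice, mouse 3 had the lowest values. It was the lowest of all 6 libraries in 41 of the 52 genes and in 31 of the 34 called genes, or 91.2%. Over all tested genes called lower, the corresponding share was 81.8%, or 2015 genes. The median of the members' log2 CPM relative to the sham mean was -0.46, -0.29 and -0.74 in BCAS mice 1 to 3, and -0.04, -0.00 and 0.06 in sham mice 1 to 3. BCAS mouse 2 was the highest BCAS mouse for 35 genes. Without BCAS mouse 3, 31 members were called lower, against 1766 of the 19077 genes tested in that fit.

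**Figure D1:**
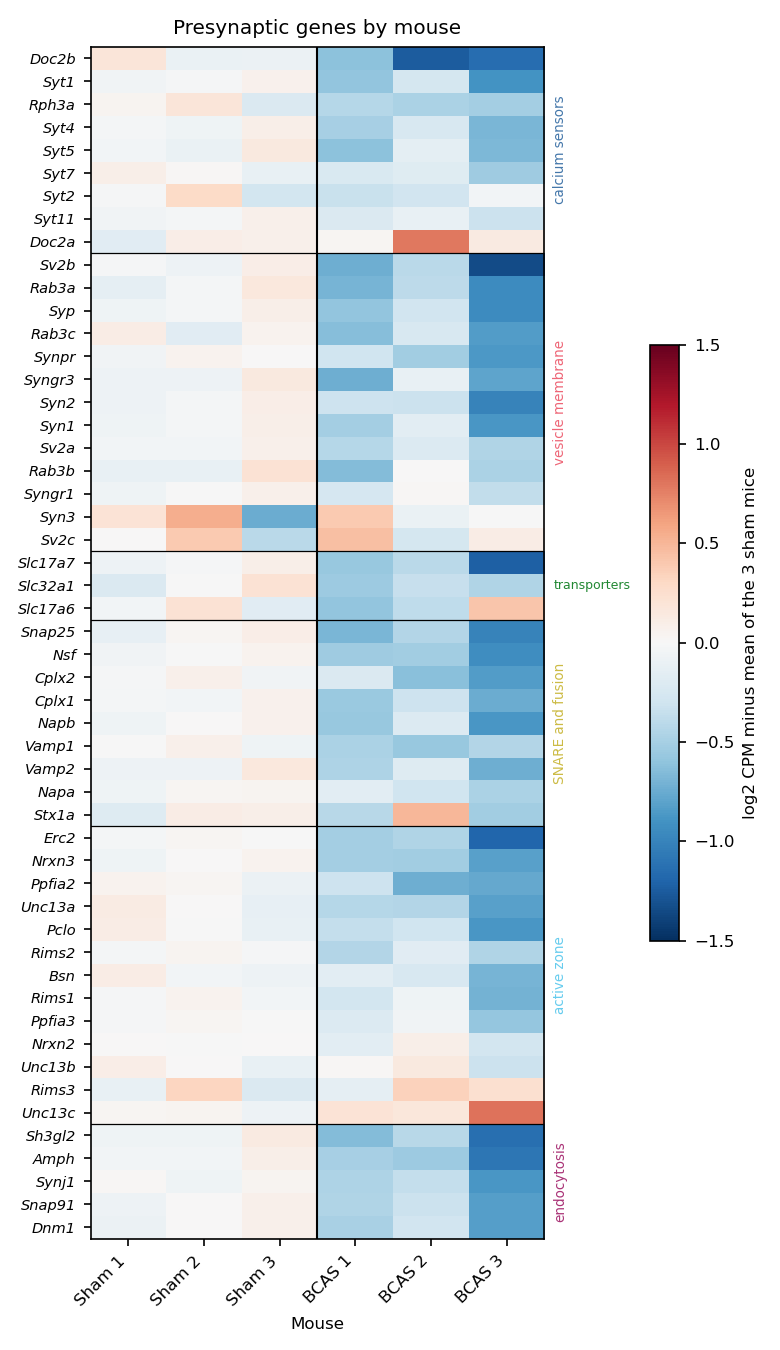
Heatmap of the 52 presynaptic genes (rows, grouped by role and ordered by log2 fold change) in the 6 mice (columns), coloured by log2 CPM minus the mean of the 3 sham mice. Blue cells fill most of the BCAS columns, most deeply in BCAS mouse 3, which was the lowest of the 6 libraries for 41 genes.

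The calcium sensors and related C2-domain proteins showed the lowest change of the whole set. Doc2b (chr11:75768966-75796049, minus strand), a soluble high-affinity calcium sensor linked to spontaneous release, had 115, 94.8 and 95.5 CPM in sham mice 1 to 3 and 65.9, 42.8 and 46.0 CPM in BCAS mice 1 to 3. Every BCAS mouse was lower than every sham mouse. The log2 fold change of Doc2b was -0.98 ± 0.16 (SE, n = 3 per group, edgeR adjusted P = 0.00224), the lowest of the 52.

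Syt1 (chr10:108497650-109010982, minus strand), the vesicle calcium sensor for fast synchronous release, was the most abundant of these sensors per length of exon. It stood at 1735, 1777 and 1874 CPM in sham mice and at 1188, 1500 and 967 CPM in BCAS mice. The groups were again separate, and Syt1 fell by 0.56 on the log2 scale (edgeR adjusted P = 0.0302). Rph3a, a Rab3 effector on the vesicle, changed by -0.48, and Syt4, a synaptotagmin of dense-core vesicles, by -0.47. Syt5, a further calcium-binding synaptotagmin, changed by -0.46 (edgeR adjusted P = 0.0342). Its call was lost without any 1 sham mouse, without BCAS mouse 1 or 3, with library totals and with the replicate block. There its edgeR adjusted P values ran from 0.0503 to 0.128. In all, 5 of the 9 sensors were called lower. Without sham mice 1, 2 and 3 in turn the count was 3, 3 and 2, and without BCAS mouse 1 it was 3. Of the exonic bases of Syt4, 14.5% are shared with another gene, and reads falling in more than 1 gene were not counted.

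The other 4 sensors were not called. Syt7, the slow high-affinity sensor of asynchronous release, had a log2 fold change of -0.30 ± 0.11 (SE, edgeR adjusted P = 0.0606), and it was called lower by DESeq2 (adjusted P = 0.0208), by edgeR with no filter (0.0313) or the replicate block (0.0489), and without BCAS mouse 2, at -0.38 (0.0277). Syt2, the fast sensor of many interneurons and brainstem neurons, had 36.1, 44.7 and 30.3 CPM in sham mice and between 29.1 and 35.7 CPM in BCAS mice. The groups overlapped for Syt2, with a log2 fold change of -0.23 ± 0.15 that was -0.08 without sham mouse 2 and -0.36 without sham mouse 3. Syt11, a synaptotagmin that does not bind calcium, had a log2 fold change of -0.21 ± 0.10 (edgeR adjusted P = 0.14) and was called lower by DESeq2 (adjusted P = 0.0347). Doc2a, the close relative of Doc2b, had the highest estimate of the sensors at 0.36 ± 0.22 (edgeR adjusted P = 0.252). Its values were 5.22, 6.35 and 6.21 CPM in sham mice and 6.03, 10.3 and 6.48 CPM in BCAS mice, so that BCAS mouse 2 alone stood above the rest, and without it the estimate was 0.07. Doc2a shares 39.4% of its exonic bases with Ino80e on the opposite strand, and strand was ignored in counting.

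Among the 13 genes of the vesicle membrane and its surface, 8 were called lower, with a median log2 fold change of -0.51 over the 13. The count was 2, 4 and 2 without sham mice 1, 2 and 3, 5 without BCAS mouse 1 and 4 with the replicate block. Sv2b (chr7:75114894-75309262, minus strand), a vesicle glycoprotein of the SV2 family, had 514, 494 and 561 CPM in sham mice and 315, 395 and 207 CPM in BCAS mice. BCAS mouse 3 held the lowest value and no BCAS mouse reached the sham range. Its log2 fold change of -0.78 ± 0.20 (SE, edgeR adjusted P = 0.0181) was the lowest of this class.

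Rab3a, the small GTPase that marks docked vesicles, had 538, 582 and 663 CPM in sham mice and 366, 452 and 307 CPM in BCAS mice, and fell by 0.66 on the log2 scale. Syp, the vesicle protein synaptophysin widely used as a terminal marker, fell by 0.58, although 16.8% of its exonic bases are shared with another gene. Rab3c, a further vesicle GTPase, fell by 0.55. Synpr, a synaptophysin relative abundant in mossy fibre terminals, fell by 0.55 on the same scale. The synaptogyrin Syngr3 and the synapsin Syn1, which tethers vesicles in the reserve pool, had log2 fold changes of -0.52 and -0.49. Both passed close to the threshold, with edgeR adjusted P values of 0.0459 and 0.0467. Syn1 was not called without any 1 sham mouse, without BCAS mouse 1 or 3, with library totals or with the replicate block, where edgeR adjusted P values ran from 0.0611 to 0.144. Sv2a, the most widely expressed SV2 protein, fell less, by 0.36, with a smaller SE of 0.09. Syngr3 lost the call in the same alternatives as Syn1, where edgeR adjusted P values ran from 0.0548 to 0.155. Its estimate became -0.78 without BCAS mouse 2 and -0.40 without BCAS mouse 3.

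Syn2, the other major synapsin, had nearly the same estimate as Syn1 at -0.51 ± 0.18 (SE) and an edgeR adjusted P of 0.0541. It was called lower by DESeq2 (adjusted P = 0.00582), limma-voom (0.0453), edgeR with RLE scaling (0.0468) or no filter (0.00532), and without BCAS mouse 1, 2 or 3 (0.0463, 0.0269 and 0.0276), although without BCAS mouse 3 its estimate was smaller, at -0.32. Its CPM were 761, 783 and 860 in sham mice and 645, 641 and 400 in BCAS mice, with no overlap. Rab3b and Syngr1, whose groups overlapped, had estimates of -0.36 ± 0.17 and -0.19 ± 0.11 and were not called. Without BCAS mouse 2 both were called lower, at -0.57 (edgeR adjusted P = 0.00747) and -0.32 (edgeR adjusted P = 0.0246), while Rab3b was at -0.23 without BCAS mouse 1 and Syngr1 at -0.11 without BCAS mouse 3. Syn3 and Sv2c, both of low level here, had the highest estimates of the class. Syn3 had 6.61, 8.38 and 3.41 CPM in sham mice and 7.54, 5.34 and 5.74 CPM in BCAS mice, and a log2 fold change of 0.018 ± 0.30. Of its exonic bases 14.1% are shared with Timp3 on the opposite strand. Sv2c had 28.1, 36.8 and 21.0 CPM in sham mice and 38.3, 23.2 and 30.3 CPM in BCAS mice, and a log2 fold change of 0.10 ± 0.22. In both genes the sham mice alone spanned nearly the whole range, and leaving out single mice changed the sign of the estimate, from -0.27 to 0.31 for Syn3 and from -0.10 to 0.31 for Sv2c.

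Of the 3 vesicular transporters, those for glutamate and GABA of the main hippocampal cell types were lower, a count of 2 that became 1, 1 and 0 without sham mice 1, 2 and 3. Slc17a7 (chr7:45163949-45176142, plus strand), which loads glutamate in principal cells, had 1312, 1365 and 1462 CPM in sham mice and 926, 1043 and 591 CPM in BCAS mice. All BCAS values were below the sham values, and its log2 fold change was -0.69 ± 0.19 (SE, edgeR adjusted P = 0.0249). Slc32a1, which loads GABA and glycine in inhibitory neurons, had 48.8, 56.3 and 65.7 CPM in sham mice and 38.7, 44.4 and 41.3 CPM in BCAS mice. It too did not overlap, and fell by 0.46 on the log2 scale (edgeR adjusted P = 0.0157), with 24.9% of its exonic bases shared with another gene.

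Slc17a6, the glutamate transporter typical of thalamic and other subcortical neurons, was not called. Its CPM were 34.4, 41.2 and 31.6 in sham mice and 23.5, 27.2 and 47.5 in BCAS mice. BCAS mice 1 and 2 lay below the sham mice while BCAS mouse 3 held the highest value of all 6. The log2 fold change was -0.13 ± 0.24, and without BCAS mouse 3 it was -0.50 and called lower (edgeR adjusted P = 0.0341). In BCAS mouse 3 the median of 6 markers of thalamic neurons was 0.77 above the sham mean on the log2 scale, against -0.11 and 0.38 in BCAS mice 1 and 2. The part of the thalamic markers in the Slc17a6 values was not tested.

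The SNARE proteins and their helpers were lower in 8 of 9 genes, with a median log2 fold change of -0.52. The count was 4 when any sham mouse was left out and 5 with the replicate block. Snap25 (chr2:136713453-136782428, plus strand), a plasma membrane SNARE protein, had 1969, 2181 and 2288 CPM in sham mice and 1329, 1574 and 1069 CPM in BCAS mice. Each BCAS mouse was below each sham mouse, and the log2 fold change was -0.70 ± 0.16 (SE, edgeR adjusted P = 0.0112), the lowest of the class. Nsf, the ATPase that takes spent SNARE complexes apart, fell by 0.65 (edgeR adjusted P = 0.00631).

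Vamp1 (chr6:125215551-125245964, plus strand), a vesicle SNARE protein, had 151, 160 and 145 CPM in sham mice and 109, 103 and 112 CPM in BCAS mice. With a log2 fold change of -0.50 ± 0.07 it had the smallest SE and the smallest edgeR adjusted P of the 52 genes, 0.00129. Vamp2, the main vesicle SNARE protein of forebrain terminals, had 1069, 1068 and 1265 CPM in sham mice and 817, 985 and 681 CPM in BCAS mice. Its log2 fold change of -0.45 ± 0.15 was of like size, but the wider spread left it near the threshold, at an edgeR adjusted P of 0.0472. Vamp2 lost the call in the same alternatives as Syn1, where edgeR adjusted P values ran from 0.0604 to 0.159.

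Cplx1 and Cplx2, the complexins that hold partly assembled SNARE complexes, had log2 fold changes of -0.53 and -0.54. For Cplx2, BCAS mouse 1 stood at 1137 CPM, near the lowest sham value of 1274 CPM, and BCAS mouse 3 at 742 CPM. Napb and Napa encode the adaptors that bring Nsf to the SNARE complex, Napb being the neuronal form. Napb fell by 0.52 and Napa by 0.31. Stx1a, a plasma membrane syntaxin, was not called. Its CPM were 96.9, 120 and 118 in sham mice and 83.1, 157 and 77.4 in BCAS mice, with a log2 fold change of -0.08 ± 0.24. BCAS mouse 2 had the highest Stx1a value and BCAS mice 1 and 3 the lowest, and the estimate turned on single mice. Without BCAS mouse 2 it was -0.49 and called lower (edgeR adjusted P = 0.00764), and without BCAS mice 1 and 3 it was 0.07 and 0.10.

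Of the 13 active zone genes 6 were called lower, and their log2 fold changes ran from -0.68 to 0.43 around a median of -0.35. The count was 3, 4 and 3 without sham mice 1, 2 and 3. Erc2 (chr14:27622428-28478537, plus strand), an ELKS family scaffold, had 214, 222 and 217 CPM in sham mice and 153, 159 and 95.5 CPM in BCAS mice. The sham mice lay close together and all BCAS mice were lower. Its log2 fold change was -0.68 ± 0.17 (SE, edgeR adjusted P = 0.0151), the lowest of the class.

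Nrxn3, a neurexin that joins the terminal to its postsynaptic partner, had 154, 162 and 167 CPM in sham mice and 113, 112 and 91.5 CPM in BCAS mice. The groups were well apart, and it fell by 0.61 on the log2 scale (edgeR adjusted P = 0.00174). Ppfia2, a liprin scaffold, fell by 0.59, with 24.5% of its exonic bases shared with other genes. Pclo, the giant scaffold Piccolo, fell by 0.49, and Rims2, a scaffold that binds Rab3 and calcium channels, fell by 0.35.

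The 3 Unc13 genes, which encode the Munc13 proteins that prime vesicles for fusion, differed in their estimates. Unc13a (chr8:71624417-71671757, minus strand), the main priming factor of forebrain glutamatergic terminals, had 342, 316 and 288 CPM in sham mice and 234, 231 and 179 CPM in BCAS mice. The groups were separate and its log2 fold change was -0.55 ± 0.12 (SE, edgeR adjusted P = 0.00822). Unc13b (chr4:43058953-43264871, plus strand), used by a subset of terminals, had 55.0, 51.5 and 47.3 CPM in sham mice and 51.9, 56.5 and 41.1 CPM in BCAS mice. The groups overlapped, with a log2 fold change of -0.04 ± 0.12 that turned to 0.03 when library totals replaced the TMM scaling. Unc13c (chr9:73479422-73968966, minus strand), best known from the cerebellum, had 28.2, 28.4 and 26.1 CPM in sham mice and 31.9, 31.0 and 48.6 CPM in BCAS mice. All BCAS mice were above all sham mice, most of all BCAS mouse 3, and the log2 fold change was 0.43 ± 0.17, the highest of the 52, at an edgeR adjusted P of 0.0797. Without BCAS mouse 3 it was 0.18, and without BCAS mouse 2 it was 0.54 and called higher (edgeR adjusted P = 0.0351).

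The remaining active zone genes were not called. Bsn, the giant scaffold Bassoon, and Rims1 had estimates of -0.35 ± 0.14 and -0.33 ± 0.14 and no overlap between the groups. Bsn was called lower by DESeq2 (adjusted P = 0.0297), with no filter (edgeR adjusted P = 0.0268) and without BCAS mouse 1, at -0.45 (edgeR adjusted P = 0.0497), and was at -0.20 without BCAS mouse 3. Rims1 was called lower with no filter (edgeR adjusted P = 0.0379) and without BCAS mouse 2, at -0.48 (edgeR adjusted P = 0.0149), and was at -0.17 without BCAS mouse 3. Ppfia3, another liprin, had -0.26 ± 0.12, which was -0.39 and called lower without BCAS mouse 2 (edgeR adjusted P = 0.0223) and -0.13 without BCAS mouse 3. Nrxn2 had 253, 250 and 252 CPM in sham mice and 226, 267 and 208 CPM in BCAS mice. BCAS mouse 2 exceeded the sham mice, and the estimate was -0.11 ± 0.10, or -0.22 without that mouse and -0.03 without BCAS mouse 3. Rims3, a short RIM protein, had an estimate of 0.14 ± 0.16, which was 0.04 without BCAS mouse 2 and 0.32 without sham mouse 2.

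All 5 endocytosis genes were lower in BCAS mice, with log2 fold changes between -0.71 and -0.52. Of the 5, 3, 4 and 1 were called without sham mice 1, 2 and 3. Sh3gl2 (chr4:85205126-85639195, plus strand), the endophilin that bends membrane and recruits its partners, had 421, 422 and 485 CPM in sham mice and 281, 330 and 202 CPM in BCAS mice. All BCAS mice were below all sham mice, and the log2 fold change was -0.71 ± 0.16 (SE, edgeR adjusted P = 0.0112). Amph, amphiphysin, which brings dynamin to the neck of the pit, fell by 0.69. Synj1, the lipid phosphatase that uncoats vesicles, fell by 0.55. Snap91, a neuronal clathrin adaptor, had 450, 474 and 498 CPM in sham mice and 346, 379 and 268 CPM in BCAS mice, and fell by 0.52. Dnm1 (chr2:32308471-32353338, minus strand), the neuronal dynamin that cuts the vesicle free, had 1209, 1294 and 1353 CPM in sham mice and 920, 1052 and 724 CPM in BCAS mice. These values did not overlap, and Dnm1 had the highest estimate of the class at -0.52 ± 0.15 (edgeR adjusted P = 0.0263).

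**Figure D2:**
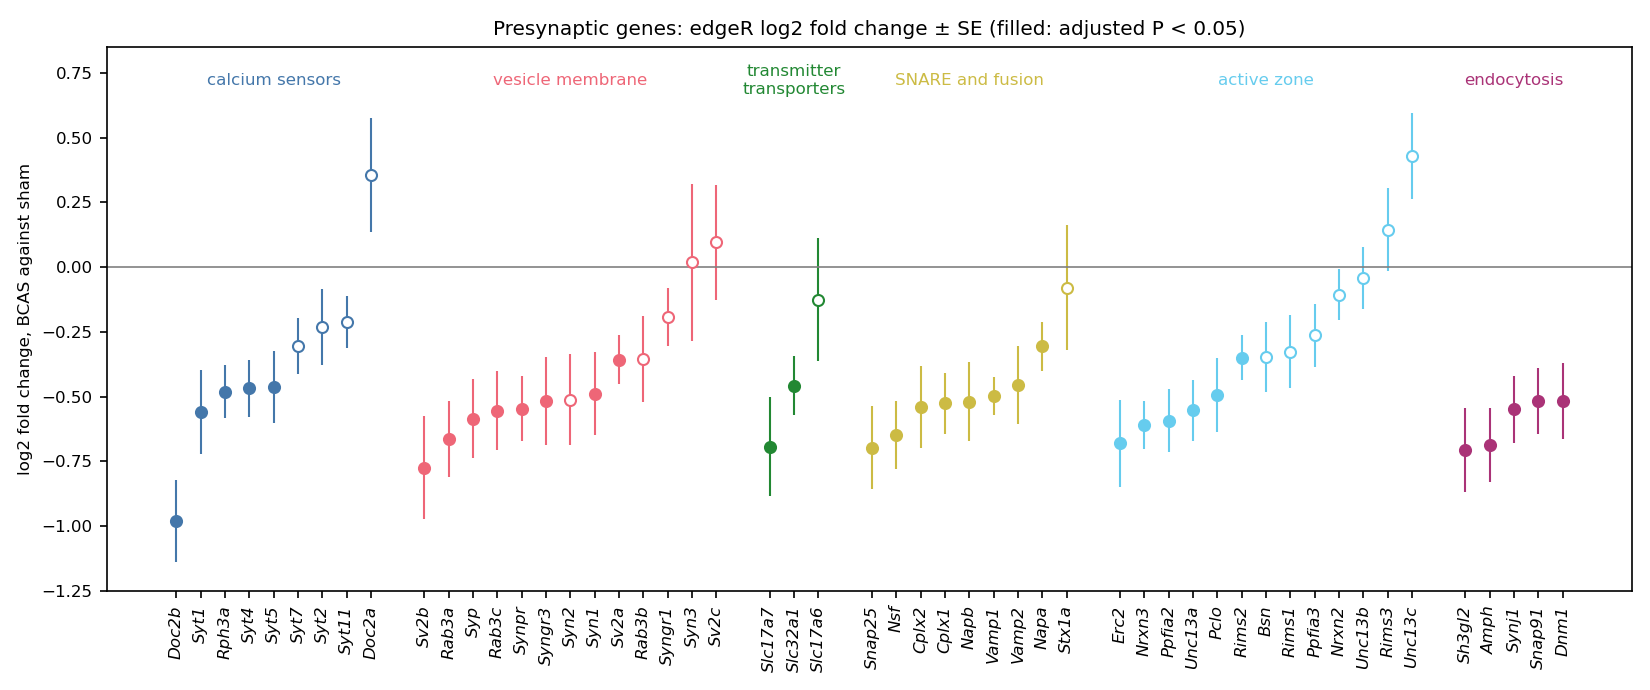
Log2 fold change of each presynaptic gene in BCAS against sham mice with its SE (vertical axis, n = 3 mice per group), grouped by role along the horizontal axis. Filled points have an edgeR adjusted P under 0.05, and all 34 of them lie below 0.

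Compared by role, called genes made up 5 of 9 calcium sensors, 8 of 13 vesicle membrane genes, 2 of 3 transporters, 8 of 9 SNARE genes, 6 of 13 active zone genes and 5 of 5 endocytosis genes. The median log2 fold changes of these classes were -0.46, -0.51, -0.46, -0.52, -0.35 and -0.55 in the same order. The classes differ in size and level, and the difference between them was not tested.

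Levels per length of exon, in CPM per kilobase, spanned a wide range in sham mice. Snap25 stood at 316, Vamp2 at 298, Cplx1 at 280, Cplx2 at 269, Rab3a at 267 and Slc17a7 at 256 CPM per kilobase, and all 6 were called lower. At the other end, Syn3 stood at 0.50, Doc2a at 2.11, Unc13b at 2.25, Sv2c at 2.95 and Unc13c at 3.14 CPM per kilobase, and none of these 5 was called. Across the 52 genes, Spearman's rho between sham level per kilobase and log2 fold change was -0.51, and across all 18617 tested genes it was -0.385. The points share the same 6 libraries and the sham level enters both measures, so the value is a description. For exon length and genomic span rho was 0.0172 and -0.0943.

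**Figure D3:**
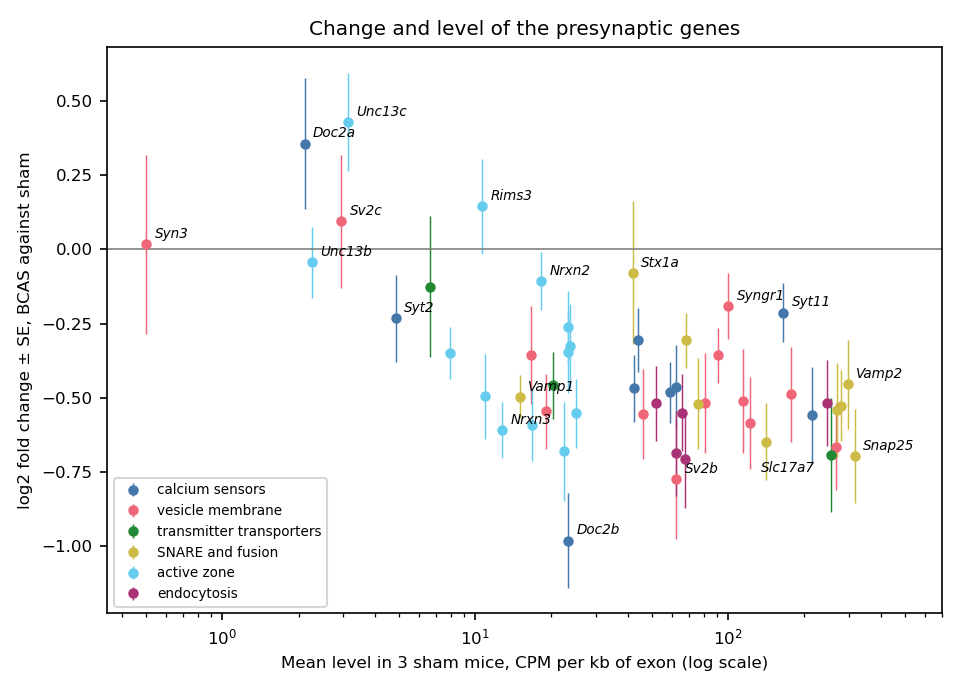
Log2 fold change with its SE (vertical axis) against the mean level in the 3 sham mice in CPM per kilobase of exon (horizontal axis, log scale) for the 52 presynaptic genes, coloured by role. The genes near or above 0 lie mostly to the left, from Syn3 at 0.50 CPM per kilobase, and the most abundant gene, Snap25 at 316, lies at -0.70.

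Ratios between related genes within a library do not depend on how libraries are scaled. In all, 10 pairs fixed by role or family were compared, each as the log2 ratio of levels per length, by an exact two-sided permutation test of 3 against 3 mice, which cannot give a P below 0.1. The ratio of Unc13a to Unc13b was 3.49, 3.46 and 3.45 on the log2 scale in sham mice and 3.02, 2.88 and 2.98 in BCAS mice. The groups did not overlap and the spread within each was small: the difference in means was -0.51 (exact permutation P = 0.1, 0.5 after adjustment over the 10 pairs). On the linear scale Unc13a stood at 11.2, 11.03 and 10.95 times the level of Unc13b in sham mice and at 8.12, 7.38 and 7.87 times in BCAS mice.

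The log2 ratio of Sv2a to Sv2b was 0.53, 0.59 and 0.52 in sham mice and 0.85, 0.74 and 1.43 in BCAS mice. It was higher in all BCAS mice, by 0.46 on average (exact permutation P = 0.1, adjusted 0.5), with BCAS mouse 3 far above the others. Without that mouse the difference was 0.25. The other 8 pairs overlapped between the groups. The glutamatergic to GABAergic transporter ratio, Slc17a7 to Slc32a1, was 3.80, 3.65 and 3.53 in sham mice and 3.63, 3.61 and 2.89 in BCAS mice, so that only BCAS mouse 3 lay outside the sham range. The same mouse had the lowest ratio of Slc17a7 to Slc17a6, 3.64 against 5.05 to 5.53 in sham mice, and of Syt1 to Syt2, 4.63 against 5.18 to 5.82. Without BCAS mouse 3 the differences of these 3 ratios, -0.28, -0.55 and -0.36, became -0.04, 0.00 and -0.12. Differences in mean log2 ratio between BCAS and sham mice were 0.03 for Vamp2 to Vamp1, 0.03 for Syn1 to Syn2, -0.03 for Cplx2 to Cplx1 and 0.00 for Rims1 to Rims2. For Napb to Napa, BCAS mice 1 and 3 lay at -0.26 and -0.24 while BCAS mouse 2, at 0.25, exceeded the sham mice.

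**Figure D4:**
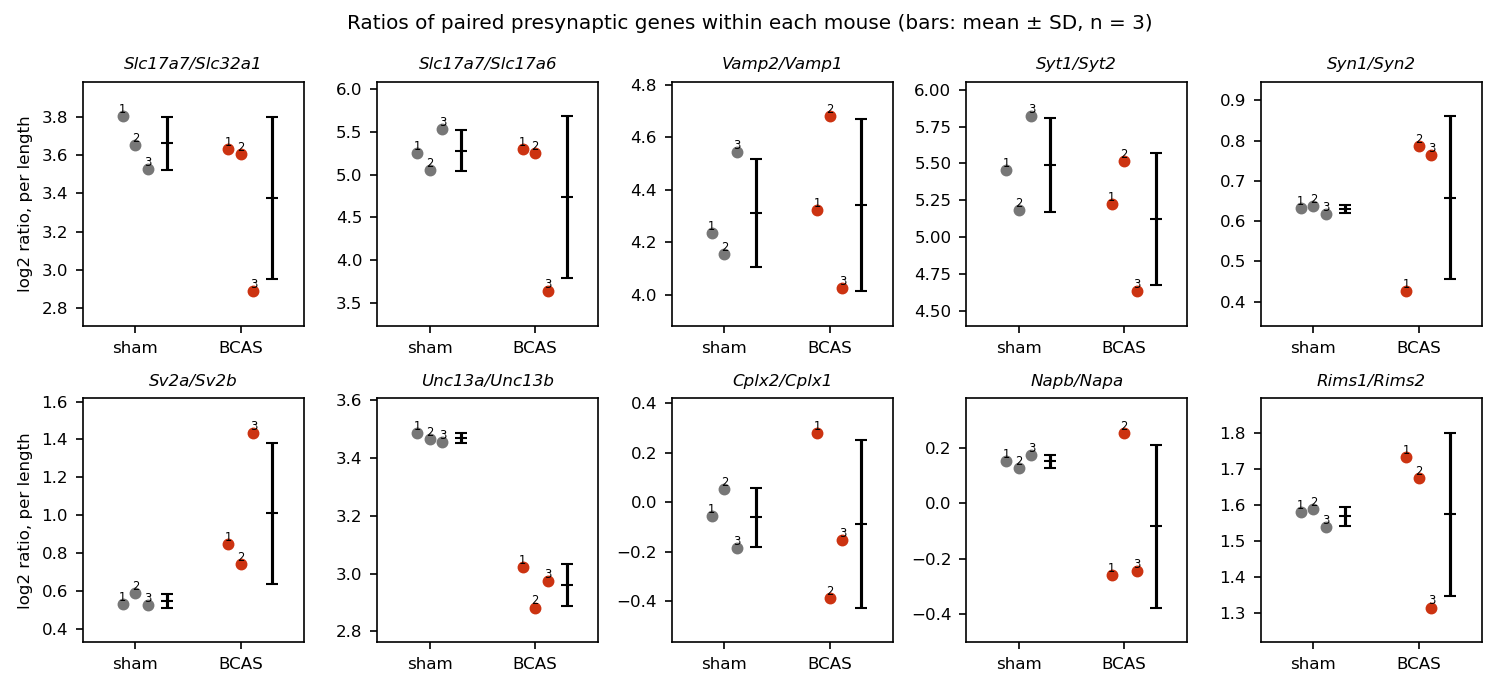
Log2 ratios of levels per length for 10 pairs of presynaptic genes in each mouse (points, numbered by mouse), with mean ± SD of the 3 mice per group beside them; each panel has its own vertical scale. Unc13a to Unc13b and Sv2a to Sv2b are the 2 panels in which sham and BCAS mice do not overlap.

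Promoter sequences are given for the Unc13 genes, because the ratio of Unc13a to Unc13b separated the groups, and for Syn1 and Sh3gl2, because they hold the cAMP response element (CRE). The sequences come from RefSeq on GRCm38.p6, read 5′ to 3′ on the strand of the gene. Those of the Unc13 genes end at the base before the RefSeq start site, and bases lying inside the first exon of the count tables were left out of Syn1. The Sh3gl2 window lies wholly inside that first exon, so only 30 bases around the element are printed for it. Capitals mark matches on either strand to the CRE, TGACGTCA, to its shorter form TGACG, which the whole element contains, and to CAGCACC and GGACAG, the left and right arms of the RE1 element bound by the repressor REST. The Unc13a window is chr8:71671758-71672007 on the minus strand, that of Unc13b chr4:43058703-43058952 on the plus strand and that of Unc13c chr9:73969038-73969287 on the minus strand. The Syn1 stretch is chrX:20921005-20921168 on the minus strand and that of Sh3gl2 chr4:85205408-85205437 on the plus strand.
Unc13a: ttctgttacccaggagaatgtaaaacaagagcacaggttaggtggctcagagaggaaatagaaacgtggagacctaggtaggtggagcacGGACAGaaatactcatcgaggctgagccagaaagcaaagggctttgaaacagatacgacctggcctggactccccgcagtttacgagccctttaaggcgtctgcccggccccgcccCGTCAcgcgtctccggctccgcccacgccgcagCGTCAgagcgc
Unc13b: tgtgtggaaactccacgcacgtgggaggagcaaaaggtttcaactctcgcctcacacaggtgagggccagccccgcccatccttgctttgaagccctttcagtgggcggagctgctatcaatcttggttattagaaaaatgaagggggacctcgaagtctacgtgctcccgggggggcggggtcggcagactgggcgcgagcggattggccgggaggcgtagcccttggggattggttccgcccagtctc
Unc13c: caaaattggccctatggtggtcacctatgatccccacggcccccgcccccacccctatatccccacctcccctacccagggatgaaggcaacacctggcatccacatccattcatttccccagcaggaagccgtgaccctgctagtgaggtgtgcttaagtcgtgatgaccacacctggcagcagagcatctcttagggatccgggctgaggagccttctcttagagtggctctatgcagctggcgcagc
Syn1: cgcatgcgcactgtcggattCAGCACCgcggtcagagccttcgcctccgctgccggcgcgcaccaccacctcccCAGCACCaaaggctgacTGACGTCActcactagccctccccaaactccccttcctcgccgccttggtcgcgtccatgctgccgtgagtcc
Sh3gl2: atcacccgcccTGACGTCAgggtgtctctc

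The Unc13a window holds 2 matches to TGACG and 1 to GGACAG, while the Unc13b and Unc13c windows hold none of these letters. The ratio of Sv2a to Sv2b separated the groups as well. Of their windows, not printed, that of Sv2a holds no match and a window of Sv2b holds GGACAG. In Syn1 the CRE begins 159 bases before the RefSeq start, with CAGCACC on 2 occasions upstream of it, and in Sh3gl2 it begins 37 bases before. Of the 52 genes, 41 were matched to the promoter table, with 55 windows of 250 bases. The CRE lay in 2 of the 41 genes, or 4.88%, against 1.77% of all genes in the table. TGACG lay in 26.8% of the 41 against 19.8%, CAGCACC in 12.2% against 6.56% and GGACAG in 29.3% against 21.0%. The median GC content of the windows was 61.2% for the presynaptic genes and 52.4% for all genes. These are matches of letters and were not tested.

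A second list of 52 presynaptic genes outside the set was examined for comparison, of which 50 were tested. Slc18a3 and Prrt2 had too few counts, and Prrt2 shares 92.4% of its exonic bases with another gene. Of the 50, 26 were called lower, or 52%, and 4 higher, or 8%, with a median log2 fold change of -0.30. The lower count was 12, 14 and 11 without sham mice 1, 2 and 3, and the higher count 1, 2 and 2, or 2 without BCAS mouse 3. With library totals in place of the TMM scaling 19 were lower and 6 higher. The lowest called changes were Cadps2, a priming factor of dense-core vesicles, at -1.07, Rab27b, a vesicle GTPase, at -0.68, Syt12, a synaptotagmin, at -0.68, the vesicle transporter relative Svop at -0.66 and Syt3, a calcium sensor, at -0.58. Cadps2 had 123, 103 and 125 CPM in sham mice and 63.3, 59.7 and 43.8 CPM in BCAS mice, and it was the only DEG of this list. The 4 higher genes were the liprin Ppfia4 at 0.67, the endocytic adaptor Ston2 at 0.62, the broadly expressed SNARE protein Snap29 at 0.33 and Snapin, a SNARE-binding protein that also serves lysosome transport, at 0.26. Ppfia4 had 110, 103 and 106 CPM in sham mice and 167, 152 and 191 CPM in BCAS mice, with no overlap.

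Markers of several cell types, though not of all those listed, differed between the groups. Of 12 pan-neuronal markers 9 were called lower, with a median log2 fold change of -0.59, and Nefl, a neurofilament, had the lowest at -0.77. Of 6 markers of CA1 pyramidal cells 4 were lower, of 4 markers of CA3 pyramidal cells 3, of 4 markers of dentate granule cells 2 and of 9 interneuron markers 5. The lowest in these lists were Spink8 at -2.15, Iyd at -1.77, Tdo2 at -1.496 and Sst at -1.10. All 8 microglial markers were higher, with a median of 2.87 and summed levels of 309 to 321 CPM in sham mice and 1827 to 2948 CPM in BCAS mice. Astrocyte markers were higher in 5 of 6 genes, with sums of 4146 to 4436 CPM in sham and 9015 to 9533 CPM in BCAS mice, and endothelial markers in 4 of 5, with sums of 220 to 241 CPM and 300 to 335 CPM. None of 6 oligodendrocyte markers was called, and of 6 thalamic markers 2 were higher. No marker of any list was at 0 counts in all libraries. Choroid plexus markers, none of 6 called, ranged from 70.8 to 4115 CPM in sham mice and from 48.2 to 5982 CPM in BCAS mice, and these values differ more within than between the groups. In whole tissue, fewer neurons and less presynaptic RNA per neuron cannot be told apart, and the part of these cell types in the presynaptic values was not tested.

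**Figure D5:**
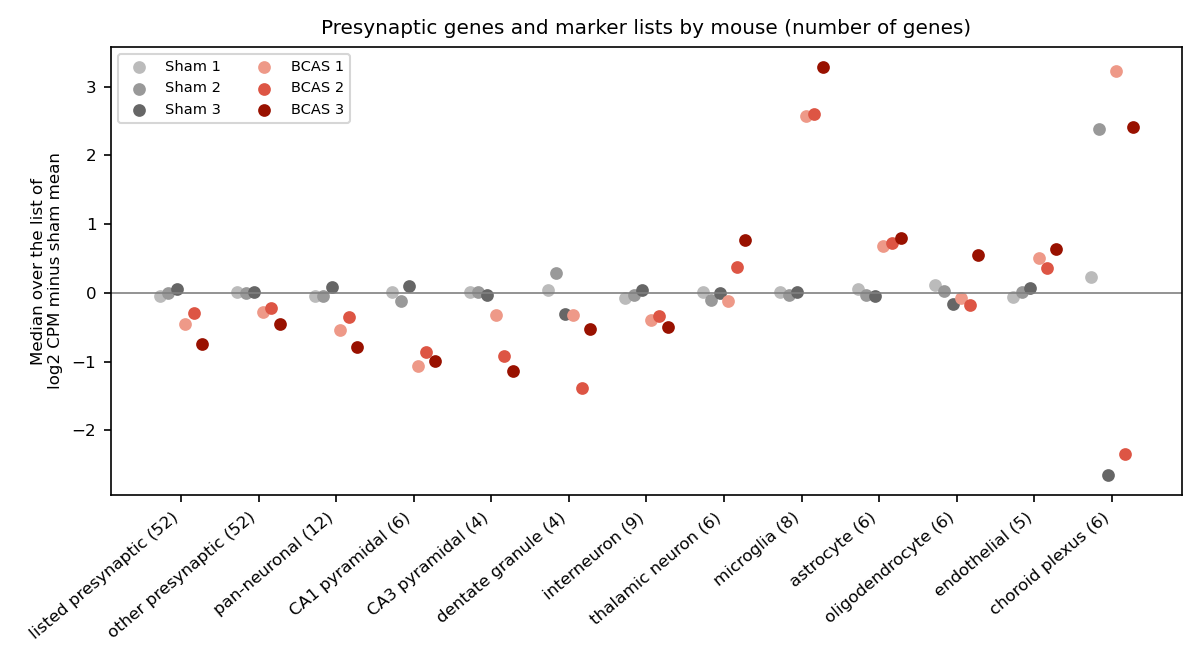
Median over each gene list of log2 CPM minus the sham mean (vertical axis) in each of the 6 mice (points), for the 52 presynaptic genes, the other presynaptic genes and markers of cell types (horizontal axis, number of genes in brackets). The presynaptic medians of BCAS mice 1 to 3, -0.46, -0.29 and -0.74, keep the order of the pan-neuronal medians, -0.54, -0.36 and -0.79.

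The set was then compared with the pan-neuronal markers themselves by scaling each library on their geometric mean in place of the TMM factors. This scaling moves the median log2 fold change over all tested genes to 0.56. On this scale no presynaptic gene was lower by edgeR, DESeq2 or limma-voom, against 0.811% of all tested genes by edgeR. At an unadjusted edgeR P under 0.05 there was 1 lower gene, a threshold not counted over all tested genes. There were 8 higher genes, or 15.4%, against 55.3% of all tested genes, and the median over the 52 was 0.04. The lower count became 1 without BCAS mouse 1 (Doc2b) or BCAS mouse 2 (Sv2b), and the higher count 5 without sham mouse 3. The 8 were Syt11, Doc2a, Syngr1, Rims3, Unc13b, Unc13c, Ppfia3 and Nrxn2, of which none had been called on the TMM scale and Syt11, Syngr1, Unc13b, Ppfia3 and Nrxn2 had estimates below 0 there. DESeq2 also gave 8, with Sv2c in place of Ppfia3. Ppfia3 further lost the call with no filter, with the replicate block and without any 1 mouse but BCAS mouse 3. Rims3 lost it without sham mouse 1 or 3, and Unc13b without sham mouse 3. Unc13c had the highest value relative to the markers, 1.00 (edgeR adjusted P = 0.00846), followed by Doc2a at 0.87 and Rims3 at 0.68. Doc2b had the lowest, -0.44, at an edgeR adjusted P of 0.0737, and Sv2b followed at -0.27. Snap25, Slc17a7 and Sh3gl2 lay at -0.18, -0.18 and -0.19, and the SNARE and endocytosis classes as a whole had medians of -0.00 and -0.03. The active zone class had a median of 0.18 and held 5 of the 8 higher genes.

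Scaling instead on the other presynaptic genes moved the median over all tested genes to 0.27 on the log2 scale. It left 18 members lower, or 34.6%, against 4.07% of all tested genes. In a count added after seeing the data 1 was higher, or 1.92%, against 29.1% of all tested genes, namely Unc13c at 0.70 (edgeR adjusted P = 0.0306). Among the 18 were Doc2b, Sv2b, Snap25, Nsf, Slc17a7, Nrxn3, Erc2, Unc13a and all endocytosis genes but Dnm1.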

How the data were processed

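After trimming and alignment to mm10 by HISAT2, the authors ran featureCounts and deposited its raw counts, not normalized, for 54752 Ensembl genes in each of the 6 libraries. The count tables' headers name featureCounts 2.0.3 and a GENCODE annotation, whereas the submitters' processing notes name version 1.6.3. Per the file headers, both mates of a pair were counted as reads, strand was ignored and reads with several alignments or in several genes were dropped. BCAS columns are numbered 2 to 4 inside the tables, and mice are numbered 1 to 3 here as in the labels. Symbols were matched for all but 29 identifiers.

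Counts were filtered by filterByExpr, scaled by TMM and fitted with edgeR 4.0.16 (glmQLFit, glmQLFTest) in R 4.3.3 without a block, with Benjamini-Hochberg adjustment over 18617 genes. DEGs were genes with an adjusted P under 0.05 whose log2 fold change exceeded 1 in size. The SE of a log2 fold change was its size over the square root of the quasi-likelihood F. CPM on the log2 scale used a prior count of 2. P values rest on 3 mice per group. All 52 members are named, with the lowest and highest change of each role in full, up to 5 called genes at each end of the second presynaptic list, and the marker with the largest change of a list where given. Members and lists were chosen with earlier results of these data known. Alternatives were DESeq2 1.42.0, limma-voom (limma 3.58.1), RLE or library totals, other filters, counts halved or thinned to the smallest total, the replicate number as a block, and leaving out each mouse. The fits were also run on simulated counts with known changes, a check of the code that does not bear on the calls here. Totals of 29652456 to 35607098 counts put a floor of 3 counts at 0.0875 to 0.0995 CPM, which covers counting error only. The histology, blood flow, qRT-PCR and single-cell data of the study were not analysed here.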

Additional observations from a re-analysis of the deposited data

How the results depend on the processing

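Scaling on the pan-neuronal markers gave a median over the 52 presynaptic genes of 0.04, and on the other presynaptic genes of -0.25. In every other alternative the median change stayed between -0.59 and -0.38, and 44 genes were below 0 in all of these. The number called lower, 34 as reported, was 25 to 39 in the other alternatives that kept all mice at the same threshold. Over all tested genes, the replicate block, which gave the 25, called 1750 genes lower. The fit with no filter, which gave the 39, called 2539 of 31988 lower, against 2463 of 18617 as reported. At an adjusted P under 0.01, where all tested genes were not counted, the number of members was 9. It was 12 to 41 when single mice were left out, against 1260 to 3092 of all tested genes. On the pan-neuronal scaling it was 0, and on that of the other presynaptic genes 18. With those scalings left aside, 24 genes were called lower at the 0.05 threshold in all alternatives that kept the mice. The number was 12 when the leave-outs are counted too. The count of higher genes was 1 (Unc13c) without the filter beyond 1 count and 0 to 1 on leaving out mice. The count of DEGs was 1 (Doc2b) with the replicate block and 0 to 1 on leaving out mice. For the other presynaptic genes, leaving out mice gave 11 to 29 lower and 1 to 3 higher genes, the absent filter 2 higher and the block 1 higher. Relative to the pan-neuronal markers, the count of lower genes was 1 without the filter, 1 with the block, 0 to 1 on leaving out mice and 18 with the other presynaptic genes as reference. The count of higher genes was 5 to 9 on leaving out mice and 1 with that reference. RLE and library totals give no separate value there, because the markers replace them. The cause of these shifts was not tested.

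Leaving out single mice changed the sign of Syn3 (-0.27 to 0.31), Sv2c (-0.10 to 0.31), Slc17a6 (-0.50 to 0.063), Stx1a (-0.49 to 0.10) and Unc13b (-0.15 to 0.074, and 0.029 with library totals), and of the log2 ratio differences of Slc17a7 to Slc17a6 (-0.83 to 0.0019), Vamp2 to Vamp1 (-0.14 to 0.19), Syn1 to Syn2 (-0.035 to 0.14), Cplx2 to Cplx1 (-0.21 to 0.12) and Rims1 to Rims2 (-0.074 to 0.13). Same-numbered sham and BCAS mice share only a number, with residual correlations of 0.036, -0.314 and -0.158. The replicate block gave 25 lower members in place of 34. Over all tested genes, library totals gave 1788 lower and 3859 higher genes in place of 2463 and 3356. With 3 mice per group an exact permutation test of a ratio cannot pass an adjusted P of 0.05.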
